A study of Arabidopsis thaliana with 18 samples.

Results

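The windows described here tile an interval of 461.4 kb on chromosome 4 of Arabidopsis thaliana (TAIR10, 11363351 to 11824750), in which the epigenetic recombinant inbred lines (epiRILs) 92 and 193 were compared. The deposited table holds 9227 windows of 100 bp placed every 50 bp across this interval. Every second window was taken, so that none overlap, and it was kept where at least 10 cytosines were covered in each of the 2 epiRILs. This left 4102 of 4614 windows, out of 43887 windows in the whole table. The rule used no methylation level. Where the less covered line had exactly 10 cytosines (76 windows) the mean was 0.0192 in epiRIL 92 and 0.0157 in epiRIL 193, and with 9 cytosines (62 windows, left out) it was 0.0124 and 0.0111.

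The study sequenced bisulfite-treated DNA of aerial rosette tissue, collected 21 to 22 days after sowing from plants under 16 h of light and 8 h of dark. It covered the wild type Columbia (Col-Wt), epiRILs 92, 150, 193 and 232, and epiHybrids 92, 150, 193 and 232. Each line had 2 libraries, and the table gives them as 1 value per window and line. Whether the 2 libraries came from separate plants is not given in the labels. No treatment and no transgene is named in the labels. In the published study the epiHybrids were crosses of each epiRIL with Col-Wt, which the labels do not state.

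EpiRILs are plants with almost the same DNA sequence but with a mosaic of methylation states. In the population that these lines are known from, the chromosomes descend from a cross of Col-Wt with a mutant of DDM1, a chromatin remodeller that plants need to keep transposons and related repeats methylated. Methylation lost through a ddm1 mutation is often inherited for many generations, while at some sequences small RNAs guide it back. In Arabidopsis, repeats and many pseudogenes carry methylation at CG, CHG and CHH sites, whereas active genes mostly carry it at CG sites of the gene body.

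Each level is a fraction from 0 to 1 in which all cytosine contexts share 1 value. Because CHH sites are frequent and sparsely methylated, a fully methylated repeat commonly reads well under 1. A window had a median of 35 covered cytosines in epiRIL 92, against 33 in epiRIL 193 and 31 in Col-Wt. The number of reads is not given, so depth is unknown and no interval or detection limit is given. With 1 value per line there is no replicate error and no test between lines. An SD below is the spread over neighbouring windows, which are not replicates.

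Most of the interval was hardly methylated in either line: 3403 of 4102 windows (83.0%) were under 0.05 in both. The mean level over all windows was 0.0278 in epiRIL 92 and 0.0239 in epiRIL 193, beside 0.0373 in Col-Wt, 0.0357 in epiHybrid 92 and 0.0305 in epiHybrid 193. The mean difference of epiRIL 92 from epiRIL 193 was 0.00385, against an SD over windows of 0.0436, and the median difference was 0. This small mean joined differences of opposite direction at different places. In 27 windows epiRIL 92 was higher by at least 0.2, and in 23 windows epiRIL 193 was higher by at least 0.2. The first count is 0.658% of the windows, where the same rule applied to all 3 intervals of the table gave 2.04%. The second is 0.561%, where all 3 intervals gave 0.183%. Without the tracts at the ends of the interval, described below, the mean difference was -0.000105, and without the tracts over AT4G22040 it was 0.00621.

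In 217 of the 4102 windows (5.29%) Col-Wt had a level of at least 0.2 with at least 10 cytosines, and these are called methylated here. Over all 3 intervals the same rule gave 1196 of 19079 windows. In 329 of the 4102 windows Col-Wt had under 10 cytosines, 93 of them with no level, and these could not be classed. Over the 217 methylated windows epiRIL 92 averaged 0.213 ± 0.0971 and epiRIL 193 averaged 0.178 ± 0.179 (SD over windows), with Col-Wt at 0.333. EpiRIL 92 thus held 63.9% of the Col-Wt level and epiRIL 193 held 53.3%. EpiRILs 150 and 232 stood at 106.0 and 101.4%. The means of epiRILs 92 and 193 were similar but their spreads were not: epiRIL 92 was mostly intermediate, while epiRIL 193 was mostly near 0 or near the Col-Wt level.

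Counted by window, a level under 25% of Col-Wt was called lost, 75% or more kept, and anything between partly methylated. These classes rest on levels that combine the libraries of a line. Whether each library of epiRIL 92 was itself partly methylated, or the libraries differed, could therefore not be tested. EpiRIL 92 was partly methylated in 146 of the 217 windows (67.3%), where all 3 intervals gave 19.0%. With windows from 0.1 in Col-Wt taken in, that share was 48.1%. It had lost 7 (3.23%, against 1.84%) and kept 64 (29.5%, against 79.2%). EpiRIL 193 had lost 94 windows (43.3%, against 34.6%), kept 84 (38.7%, against 49.6%) and was partly methylated in 39 (18.0%, against 15.8%). In 79 of the 217 windows epiRIL 92 was partly methylated and epiRIL 193 lost, and 77 of these lay in the tracts at the ends of the interval. In 46 of the 217 windows epiRIL 92 was partly methylated and epiRIL 193 had kept the Col-Wt level, and 37 of these lay in the 2 tracts at the pseudogene AT4G22040, 36 of them over the gene itself. The joint classes were not counted over all 3 intervals, so whether these combinations are unusual was not tested. Near-complete loss in epiRIL 193 beside partial methylation in epiRIL 92 was therefore found in some of the interval but not across it.

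**Figure D1:**
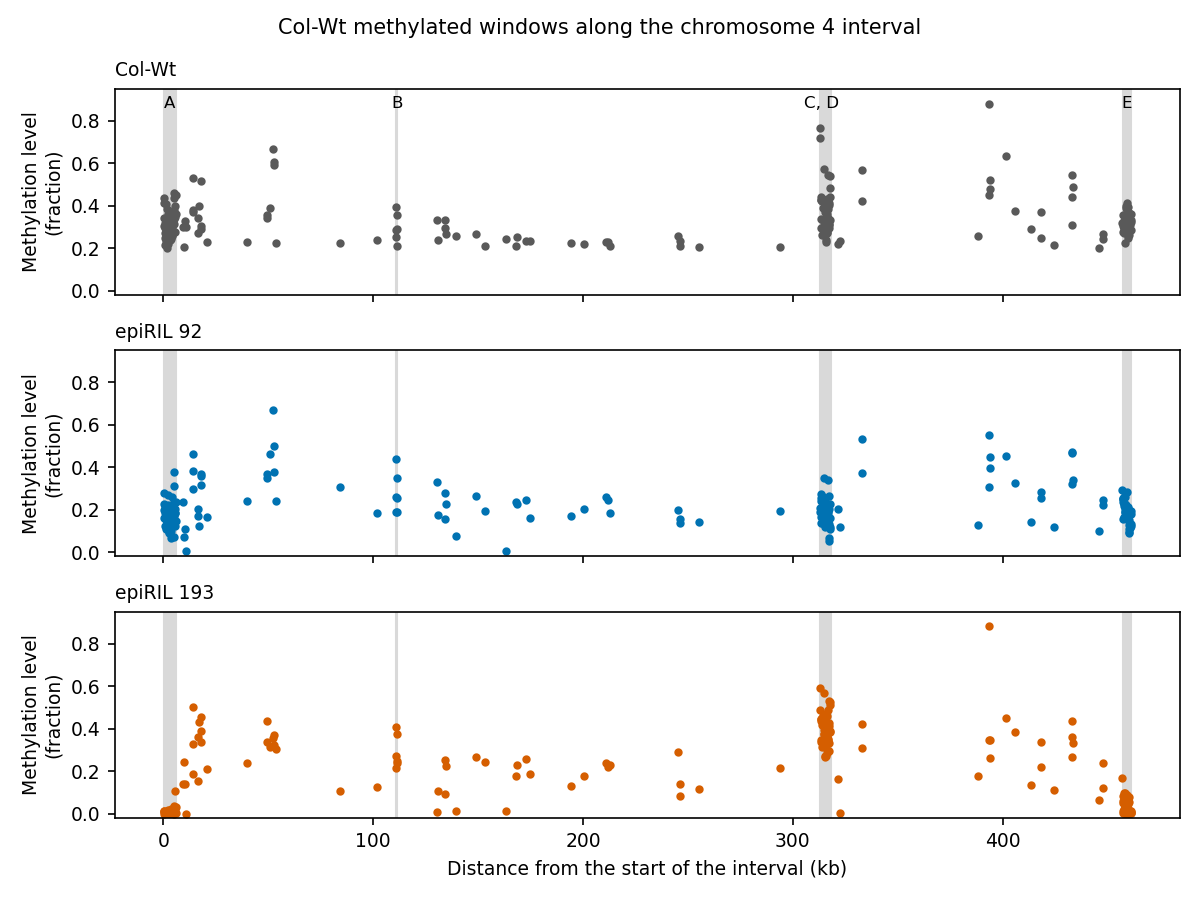
Methylation level (fraction) of the 217 Col-Wt methylated windows against their distance from the start of the interval (kb), in Col-Wt, epiRIL 92 and epiRIL 193. Each point is 1 window and grey bands mark the 5 tracts, lettered A to E. EpiRIL 193 is near 0 at both ends and near the Col-Wt level over tracts C and D, while epiRIL 92 is intermediate at all of these places.

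A tract is a run of 5 or more methylated windows with gaps of at most 100 bp between the end of a window and the start of the next. There were 5, holding 147 of the 217 windows, and 4 of them overlapped an annotated pseudogene. Tract A spans 11363451 to 11369350 and overlaps a pseudogene, AT4G21360, and the gene of a microRNA, MIR4239. Tract B, at 11474151 to 11474950, overlaps no annotated gene. Tracts C (11676451 to 11677650) and D (11678051 to 11681350) both lie at AT4G22040, with 41 of their 45 windows over the gene and 4 beside it. Tract E spans 11820551 to 11824750, inside the protein-coding gene AT4G22410 and the pseudogene AT4G22415 that overlaps it, so its level cannot be assigned to either of these genes. Tract E reaches the last window of the interval and tract A starts in the second window used, so both may continue outside the table.

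At the left end, tract A was intermediate in epiRIL 92 and nearly unmethylated in epiRIL 193. Its 56 windows had a mean level of 0.310 ± 0.0657 in Col-Wt, 0.177 ± 0.0566 in epiRIL 92 and 0.00957 ± 0.0149 in epiRIL 193 (SD over windows). EpiRILs 150 and 232 both read 0.371, epiHybrid 92 read 0.348, epiHybrid 193 read 0.217, and epiHybrids 150 and 232 read 0.363 and 0.339. EpiRIL 193 was thus the lowest line, epiRIL 92 the next and epiHybrid 193 the third, with all other lines at or above Col-Wt. EpiRIL 92 held 57.2% of the Col-Wt level and epiRIL 193 held 3.08%, and epiRIL 92 was above epiRIL 193 in 56 of 56 windows. By window, 50 were partly methylated in epiRIL 92, 5 were kept and 1 was lost, whereas 55 were lost in epiRIL 193 and 1 was partly methylated. Col-Wt read lower here than the lines that kept the tract, and against the mean of epiRILs 150 and 232 the share was 47.8% in epiRIL 92 and 2.58% in epiRIL 193.

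At the right end, in tract E, epiRIL 193 was again the lowest line, epiRIL 92 the next and epiHybrid 193 the third. The 40 windows of tract E had a mean of 0.320 ± 0.0432 in Col-Wt, 0.188 ± 0.0487 in epiRIL 92 and 0.0259 ± 0.0311 in epiRIL 193 (SD over windows). EpiRILs 150 and 232 read 0.351 and 0.357, epiHybrid 92 read 0.334, epiHybrid 193 read 0.206, and epiHybrids 150 and 232 both read 0.352. EpiRIL 92 was above epiRIL 193 in 40 of 40 windows, at 58.8% of Col-Wt against 8.09%. In epiRIL 92, 32 windows were partly methylated and 8 kept. In epiRIL 193, 34 were lost and 6 partly methylated, with a highest level of 0.0973. The difference of epiRIL 92 from epiRIL 193 was 0.162 here and 0.168 in tract A, both under the limit of 0.2, so that 8 windows of tract E and 13 of tract A were past it.

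Over AT4G22040, in the middle of the interval, the order of the 2 epiRILs was the opposite. Tract C, with 12 windows, read 0.445 ± 0.151 in Col-Wt, 0.202 ± 0.0477 in epiRIL 92 and 0.430 ± 0.0747 in epiRIL 193 (SD over windows). EpiRILs 150 and 232 read 0.468 and 0.393, and epiHybrids 92, 150, 193 and 232 read 0.448, 0.459, 0.454 and 0.428. EpiRIL 92 was the lowest of the 9 lines, and the other 8 lay between 0.393 and 0.468. Tract D, with 33 windows, read 0.358 ± 0.0872 in Col-Wt, 0.185 ± 0.0634 in epiRIL 92 and 0.388 ± 0.0781 in epiRIL 193. EpiRILs 150 and 232 read 0.397 and 0.335, and epiHybrids 92, 150, 193 and 232 read 0.364, 0.406, 0.388 and 0.373. EpiRIL 92 was again the lowest line.

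In percent of Col-Wt, epiRIL 92 held 45.4% in tract C and 51.8% in tract D, and epiRIL 193 held 96.7 and 108.3%. EpiRIL 193 was above epiRIL 92 in 45 of 45 windows of the pair of tracts, and by at least 0.2 in 7 windows of tract C and 13 of tract D. EpiRIL 193 had lost none of these 45 windows, and 43 were kept by the rule given above. EpiRIL 92 was partly methylated in 39 of them, had lost 4 and had kept 2.

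Tract B differed little between the lines. Its 6 windows averaged 0.280 ± 0.0983 in epiRIL 92, 0.292 ± 0.0795 in epiRIL 193 and 0.299 ± 0.0667 in Col-Wt (SD over windows). EpiRIL 92 held 93.7% and epiRIL 193 held 97.7% of the Col-Wt level, and the difference of epiRIL 92 from epiRIL 193 was -0.0121. EpiRIL 92 was the higher in 2 windows and epiRIL 193 in 4. EpiHybrids 92 and 193 read 0.251 and 0.313, and epiRILs 150 and 232 read 0.269 and 0.308.

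**Figure D2:**
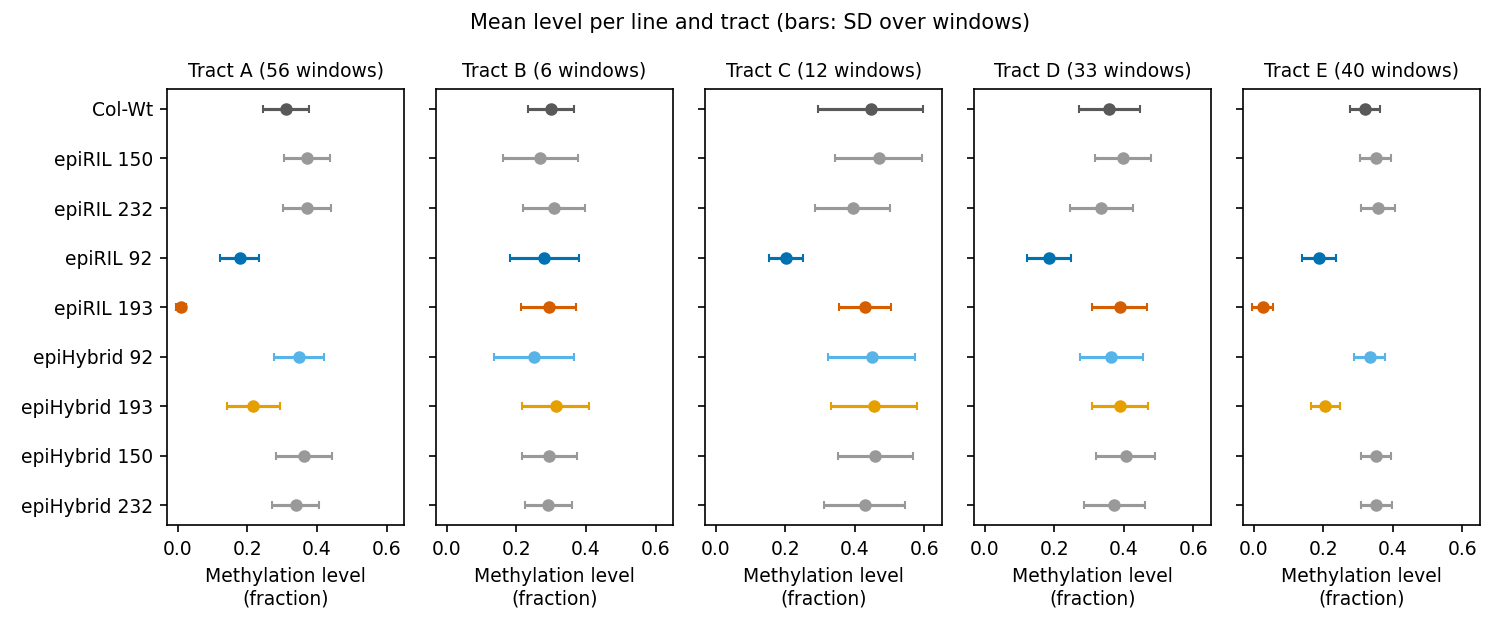
Mean methylation level (fraction) of each of the 9 lines in the 5 tracts. Points are means over the windows of a tract and bars are the SD over windows, with the number of windows above each panel. EpiRIL 92 lies between 0.177 and 0.202 in tracts A, C, D and E, whereas epiRIL 193 is at 0.00957 and 0.0259 in tracts A and E and at 0.430 and 0.388 in tracts C and D.

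The level of epiRIL 92 was close to the same in the 4 tracts where it was reduced: 0.177, 0.202, 0.185 and 0.188, while Col-Wt ranged from 0.310 to 0.445. Window by window, its share of the Col-Wt level ran from 23.2 to 81.7% in tract A, 26.3 to 64.2% in tract C, 15.7 to 77.2% in tract D and 30.5 to 91.6% in tract E. The medians were 58.5, 48.1, 58.6 and 57.7% in that order. In epiRIL 193 the medians were 2.01% in tract A and 2.98% in tract E, against 102.6% in tract C and 111.3% in tract D. In the tracts at the ends, the share of epiRIL 193 reached 32.5% at most and its level reached 0.107 at most. The lowest level of epiRIL 92 in those tracts was 0.0673, so the levels of the lines overlapped over all windows although epiRIL 92 was higher in each one.

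**Figure D3:**
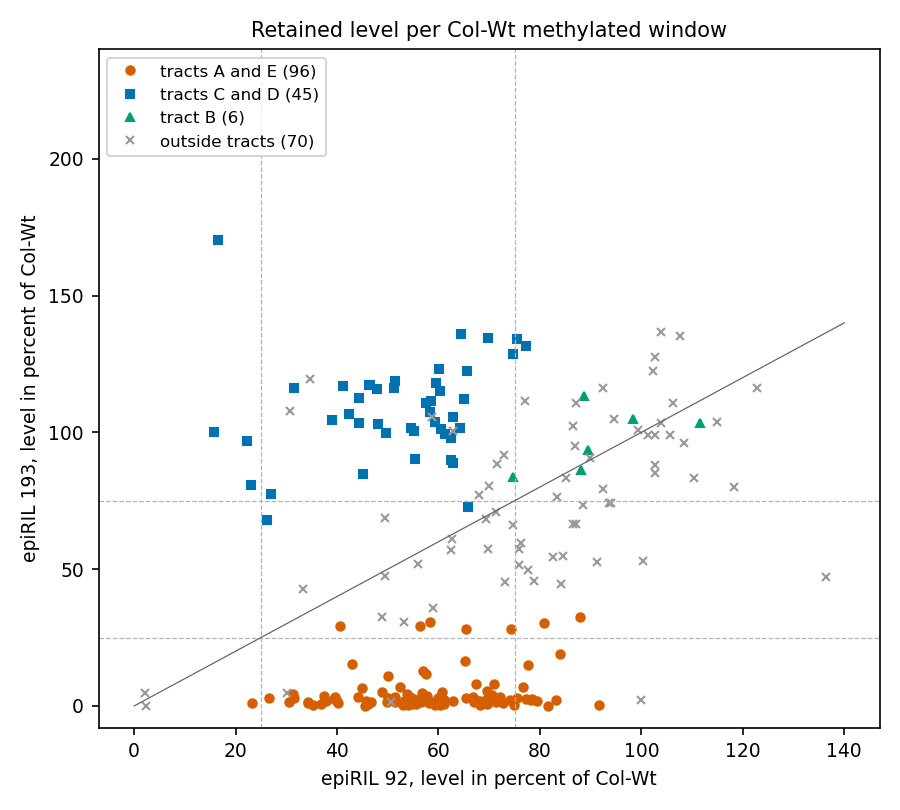
Level of epiRIL 193 against that of epiRIL 92, each in percent of Col-Wt, for the 217 Col-Wt methylated windows. Symbols give the tract, dashed lines mark 25 and 75%, and the solid line marks equal shares. The 96 windows of tracts A and E lie at 32.5% or less on the epiRIL 193 axis, the 45 windows of tracts C and D at 68.0% or more, and both spread over the middle of the epiRIL 92 axis.

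The partial level of epiRIL 92 was not even along every tract. In tract E, split into 4 consecutive groups of 10 windows, epiRIL 92 held 73.4, 63.6, 57.9 and 41.4% of the Col-Wt level from left to right. Col-Wt itself read 0.305, 0.321, 0.321 and 0.331 in these groups, and epiHybrid 92 read 111.5, 103.3, 98.4 and 104.4% of Col-Wt. EpiRIL 193 read 14.1, 6.53, 9.88 and 2.35%. In tract A, 4 groups of 14 windows gave between 54.4 and 63.4% in epiRIL 92, with no steady course, and 2.01, 2.19, 2.33 and 5.23% in epiRIL 193. The highest window of epiRIL 193 in tract A (0.107) started at 11369051, close to the right edge of the tract. It is the first window after a stretch of 53 lost windows, from 11363451 to 11369050, and 2 more lost windows follow it up to 11369350. In tract E the last 10 windows, from 11823651 to 11824750, formed 1 such stretch, and the other 24 lost windows fell into 5 more.

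In tracts C and D, the 4 windows with the lowest share of the Col-Wt level in epiRIL 92 lay near the right edge of tract D. At 11680651 to 11680750 epiRIL 92 read 0.0644 and epiRIL 193 read 0.412, with 0.411 in Col-Wt. In the next window, up to 11680850, epiRIL 92 read 0.0513, epiRIL 193 read 0.531 and Col-Wt read 0.312. There epiRIL 193 covered 18 cytosines and epiRIL 92 and Col-Wt 44 each, so these levels come from unlike sets of cytosines. The last 2 windows of the tract, from 11681151 to 11681350 and beyond the annotated end of the gene, read 0.111 and 0.120 in epiRIL 92, with 0.390 and 0.524 in epiRIL 193. These are the 4 windows of the tract that epiRIL 92 had lost. EpiRIL 232 was also below Col-Wt in them, at 0.202, 0.194, 0.333 and 0.365, and epiRIL 150, at 0.388 to 0.654, was below Col-Wt in the first of them. Across the 33 windows of tract D the profile of epiRIL 92 had a Pearson correlation of 0.66 with that of epiRIL 232, 0.37 with Col-Wt, 0.18 with epiRIL 193 and 0.01 with epiRIL 150. Over the same windows epiRIL 193 had a correlation of 0.71 with Col-Wt. In tract A (56 windows) epiRIL 92 had a correlation of 0.65 with Col-Wt and epiRIL 150 one of 0.84. In tract E (40 windows) the values were 0.18 and 0.77. The likeness of epiRIL 92 to epiRIL 232 over epiRIL 150 did not hold in every tract. Its correlations with epiRILs 232 and 150 were 0.67 and 0.65 in tract A. They were 0.58 and 0.33 in tract C (12 windows), and 0.14 and 0.53 in tract E. These coefficients run over neighbouring windows that share their cytosine make-up and their libraries, and they describe the profiles only.

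**Figure D4:**
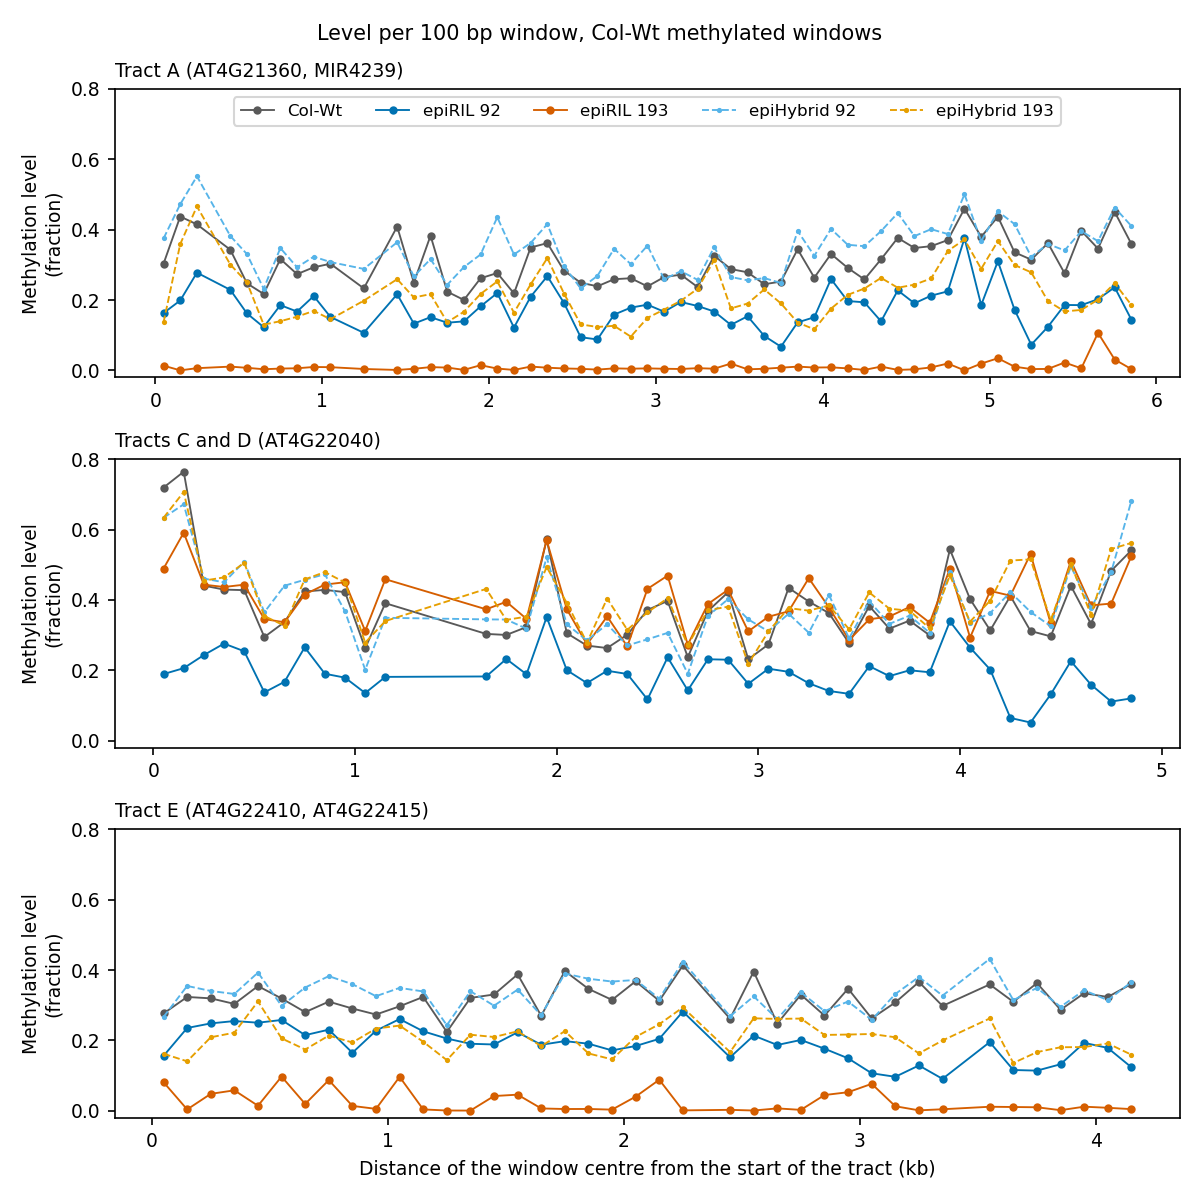
Methylation level (fraction) in each Col-Wt methylated window of tract A, tracts C and D, and tract E, against the distance of the window centre from the start of the tract (kb). Points are windows joined by lines, across gaps too, for Col-Wt, epiRILs 92 and 193 (solid) and epiHybrids 92 and 193 (dashed). EpiRIL 92 runs between Col-Wt and epiRIL 193 in tracts A and E and below both over AT4G22040, with a lowest level of 0.0513 near the right edge.

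The regions of joined windows past the limit of 0.2 lay mostly in the tracts. The windows where epiRIL 92 was higher formed 17 regions, 12 of them of 1 window, and 21 of the 27 windows were in a tract. The longest, at 11367851 to 11368550 across the annotated end of AT4G21360, held 5 such windows among 7, with a mean of 0.247 in epiRIL 92, 0.0122 in epiRIL 193 and 0.389 in Col-Wt. A pair of regions in tract E followed, each with 3 such windows among 4. At 11820651 to 11821050 epiRIL 92 read 0.247 and epiRIL 193 0.0312, and at 11821451 to 11821850 they read 0.230 and 0.0267. The windows where epiRIL 193 was higher formed 9 regions, and 20 of the 23 windows were in tracts C and D. The longest, at 11680551 to 11681350, held 8 windows with a mean of 0.133 in epiRIL 92, 0.439 in epiRIL 193 and 0.391 in Col-Wt. At 11677251 to 11677750 the levels were 0.163, 0.429 and 0.374, and at 11676451 to 11676750 they were 0.213, 0.508 and 0.641, each in the same order of lines.

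The epiHybrids separated the 2 lines further. In the 96 windows of tracts A and E, epiHybrid 92 read 108.8% of Col-Wt although epiRIL 92 read 57.8%, and epiHybrid 193 read 67.6% where epiRIL 193 read 5.20%. The mid-parent level, the mean of Col-Wt and the epiRIL, was 0.248 for line 92 and 0.165 for line 193, and the epiHybrids read 0.342 and 0.213. EpiHybrid 92 was above its mid-parent level in 96 of 96 windows and epiHybrid 193 in 78 of 96. On a scale where 0 is the Col-Wt level, 0.5 the mid-parent level and 1 the epiRIL level, epiHybrid 92 was at -0.209 and epiHybrid 193 at 0.342. Since epiRILs 150 and 232 also read above Col-Wt in these tracts (115.4 and 116.3%), the position depends on the wild-type level used.

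Over AT4G22040 epiHybrid 92 read 101.4% of Col-Wt in the 45 windows of tracts C and D, where epiRIL 92 held 49.8%, and its position was -0.0283. EpiHybrid 193 read 106.4% there and epiRIL 193 104.7%, so that its parents did not differ enough for a position to be read. Over all 217 methylated windows the position was -0.0258 for epiHybrid 92 and 0.340 for epiHybrid 193. With the mean of epiRILs 150 and 232 as the wild-type level, which also set the windows taken, epiHybrid 92 was at 0.0845, on the other side of 0. EpiHybrid 193 was then at 0.420, nearer to the mid-parent level. Some other alternatives, given in the closing section, also put epiHybrid 92 above 0, so its side of 0 was not stable. Both hybrids share the Col-Wt column, and the difference between their positions was not tested.

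Outside the tracts, 70 methylated windows lay alone or in short runs, and there the 2 lines were closer. They averaged 0.265 ± 0.133 in epiRIL 92, 0.246 ± 0.145 in epiRIL 193 and 0.332 ± 0.138 in Col-Wt (SD over windows). That is 79.9% of Col-Wt in epiRIL 92 and 74.2% in epiRIL 193. The levels of the 2 lines were within 0.1 of each other in 53 of the 70, and epiRIL 92 was the higher in 46. EpiRIL 92 had lost 2, kept 44 and held 24 in part, and epiRIL 193 had lost 5, kept 35 and held 30 in part. Of the 70, 34 overlapped a protein-coding gene and no pseudogene, and read 84.0% of Col-Wt in epiRIL 92 and 70.3% in epiRIL 193. The 33 with no annotated gene read 77.6 and 76.5%. EpiRILs 150 and 232 read 92.8 and 88.8% of Col-Wt over the 70 windows.

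The windows lost in epiRIL 193 outside the tracts were 5 windows far apart. At 11493851, in the protein-coding gene AT4G21630, epiRIL 193 read 0.00764 while epiRIL 92 read 0.331, Col-Wt 0.332, epiHybrid 92 0.338 and epiHybrid 193 0.136. In the window at 11502951 in AT4G21650 the levels were 0.0120 in epiRIL 193 and 0.0776 in epiRIL 92, with 0.257 in Col-Wt. At 11686051, in the long non-coding RNA gene AT4G07040, they were 0.00339, 0.118 and 0.233. The windows at 11374351 and 11526551, with no annotated gene, were under 0.02 in both epiRILs, and there all other lines too were under 0.1 while Col-Wt read 0.242 or more.

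Genes were compared over windows of at least 0.05 in Col-Wt, a lower limit that takes in gene body methylation. In the interval 157 annotated genes were found, 122 of them protein-coding, and 34 genes had at least 5 such windows. Of these, 30 were protein-coding genes that no tract overlaps. EpiRIL 92 had kept 22 of the 30 and held 8 in part, with a median of 86.3% of Col-Wt. EpiRIL 193 had kept 18, held 10 in part and lost 2, with a median of 82.5%. In 24 of the 30 genes epiRIL 92 was higher than epiRIL 193, in 5 genes both were partly methylated, and in 5 genes epiRIL 193 was partly methylated and epiRIL 92 had kept the level. Of the 8 genes held in part by epiRIL 92, ATML1 and AT4G22290 were under 75% in epiRILs 150 and 232 too. SRF8 was so in epiRIL 150 (73.1%), and PRORP3 (65.9%) and AT4G21660 (73.7%) in epiRIL 232. VAL3, AT4G21820 and AT4G22280 were above 75% in both. These gene counts were not made over all 3 intervals.

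The lowest share of epiRIL 193 among these 30 genes was in AT4G21630 (5 windows), with a level of 0.215 in Col-Wt, 0.168 in epiRIL 92 and 0.0252 in epiRIL 193. EpiHybrids 92 and 193 read 0.212 and 0.106 in this gene, and epiRILs 150 and 232 read 0.212 and 0.234. ATML1, which encodes a homeodomain transcription factor of the epidermis, read 0.117 in Col-Wt, 0.0482 in epiRIL 92 and 0.0275 in epiRIL 193 over 5 windows. The other epiRILs were also under Col-Wt in ATML1, at 0.0674 in epiRIL 150 and 0.0811 in epiRIL 232. CRK28, a cysteine-rich receptor-like kinase gene, read 0.118 in Col-Wt, 0.0923 in epiRIL 92 and 0.0460 in epiRIL 193 over 14 windows, with epiRIL 92 the higher in 13. The end of CRK28 overlaps CRK29, a gene of the same family that stood at 108.9% of Col-Wt in epiRIL 92 and 102.4% in epiRIL 193. B120, the neighbour of CRK28 on the other side, read 0.133, 0.131 and 0.0561 over 7 windows, with epiRIL 92 the higher in 7 of 7.

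Other gene bodies read closer to each other in the 2 lines. CPL1, a phosphatase gene for the tail of RNA polymerase II, stood at 98.1% of Col-Wt in epiRIL 92 and 97.8% in epiRIL 193 over 20 windows. NRPB2, which encodes the second-largest subunit of RNA polymerase II, stood at 77.8 and 76.3% over 25 windows. APC4, a gene for a subunit of the anaphase-promoting complex, stood at 96.3 and 88.9% over 21 windows. VAL3, a gene of the B3-domain repressor family, stood further apart, at 74.8 and 57.5% over 20 windows. Across all 431 windows between 0.05 and 0.2 in Col-Wt, epiRIL 92 held 85.1% and epiRIL 193 held 71.9%, beside 90.5 and 96.7% in epiRILs 150 and 232.

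**Figure D5:**
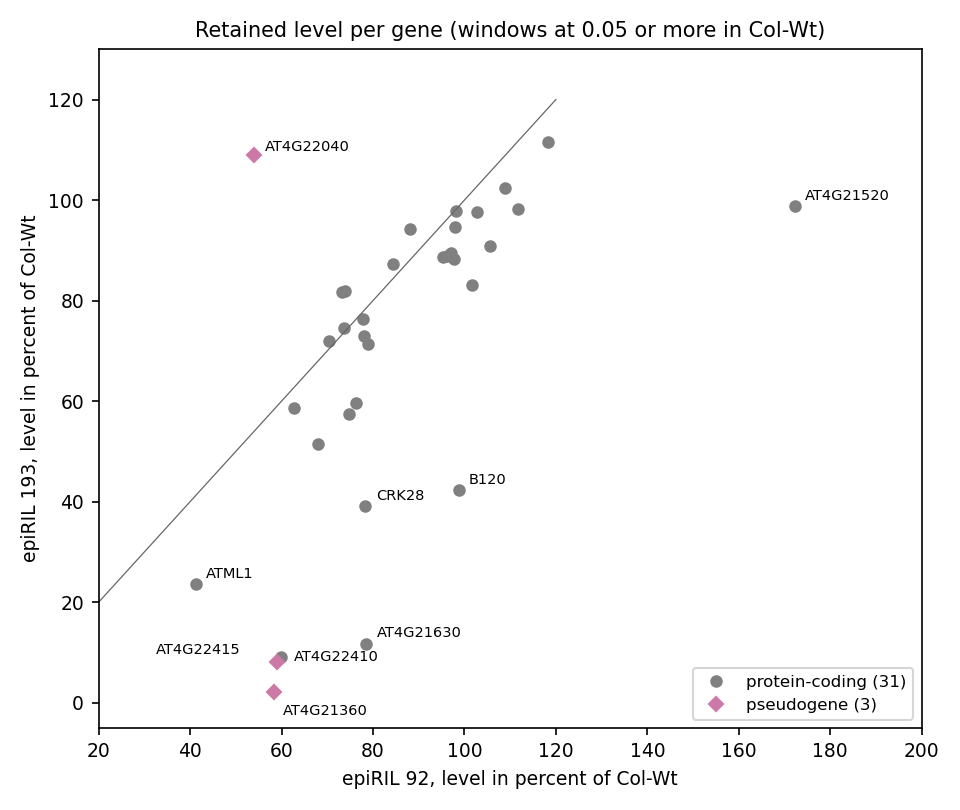
Level of epiRIL 193 against that of epiRIL 92, each in percent of Col-Wt, for the 34 genes of the interval with at least 5 windows at 0.05 or more in Col-Wt. Each symbol is 1 gene, grey for protein-coding and pink for pseudogenes, and the line marks equal shares. AT4G21360, AT4G22410 and AT4G22415 lie at 58.4 to 60.0% in epiRIL 92 and 2.16 to 9.03% in epiRIL 193, AT4G22040 at 54.0 and 109.0%, and most other genes near the line.

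The other intervals of the table, both on chromosome 3, are given for scale under the same rule. In the one that starts at 8937051, epiRIL 92 held 102.9% of Col-Wt in 578 methylated windows and epiRIL 193 held 80.8%. In the one that starts at 22235451, with 401 methylated windows, they held 98.9 and 37.8%. Partly methylated windows made up 8.65 and 7.73% of the methylated windows of epiRIL 92 there, against 67.3% on chromosome 4. These differences between intervals were not tested, since each line has 1 value per window and neighbouring windows are not independent.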

How the data were processed

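DNA methylation was measured by bisulfite sequencing in 18 libraries of 9 lines. Per the submitters' processing notes, the tools were Bowtie2, BS-Seeker2 and cutadapt, without versions, and the build was TAIR10. The deposited methylation level is a fraction per 100 bp window and line. The authors had combined the 2 libraries of a line, by a method not given in the sources used here. The second column used per line holds a number of cytosines, not reads. The planned per-library test was therefore not possible and no p-value is given. Mid-parent values were recomputed from the levels, and the deposited ones were not used.

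From these values, means, shares of Col-Wt, classes, tracts and differences were computed with pandas 2.3.3 and numpy 2.4.6 in Python 3.11.15. The tract rule and the lost and partly methylated classes were checked on simulated data with exact planted shares. The kept class, gaps within a tract and the coverage minimum were not checked in this way. Gene positions came from the RefSeq table of assembly TAIR10.1, whose nuclear coordinates were taken as those of TAIR10. Strand, cytosine context and sequence were not used here. Every tract, the 3 regions with the most windows past 0.2 per direction, and the borders of the loss in epiRIL 193 are named by rule. All genes named outside the tracts (AT4G21630, AT4G21650, AT4G07040, ATML1, CRK28, CRK29, B120, CPL1, NRPB2, APC4, VAL3, AT4G21520, AT4G22290, SRF8, PRORP3, AT4G21660, AT4G21820, AT4G22280) were chosen after their values were seen. The members, limits and lists were chosen with earlier results of these data known. Alternatives covered the coverage minimum, window offset, limits, wild-type level and background.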

Additional observations from a re-analysis of the deposited data

Results flagged for a closer look

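In tract D, over AT4G22040, the 2 epiRILs lay on opposite sides of Col-Wt. EpiRIL 92 differed from Col-Wt by -0.173 and epiRIL 193 by 0.0298. The difference between these 2 effects was not tested, since each line has 1 value per window. The SD over windows of epiRIL 193 (0.0781) is a spread of levels and does not measure the spread of its difference from Col-Wt. By window, the share of epiRIL 193 had a median of 111.3% of Col-Wt and a first quartile of 100.2%. EpiRIL 150 also read above Col-Wt there (0.397 against 0.358), as did every epiHybrid (0.364 to 0.406), whereas epiRIL 232 read below it (0.335). EpiRIL 193 stood at 97.7% of epiRIL 150 and at 105.9% of the mean of epiRILs 150 and 232. The side on which epiRIL 193 lies thus depends on the reference used.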

How the results depend on the processing

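No paired analysis was possible because the libraries of a line share 1 column, so no library could be left out either. With no replicate spread, a mean or share was taken as moved past 10% of its value, a hybrid position past 0.1 and a count past 1.5 times. Of 103 comparisons of interval results with an alternative, 82 stayed within these bounds, 19 moved and 2 reversed sign past them. A hybrid position that changed sign by 0.1 or less was counted as within these bounds. The mean difference of epiRIL 92 from epiRIL 193 was 0.00432 with a minimum of 20 cytosines. Chosen after seeing the data, leaving out the AT4G22040 tracts gave 0.00621, with epiRIL 193 at 37.3% of Col-Wt, and leaving out the tracts at both ends gave -0.000105 and 87.6%. With a difference limit of 0.1, 128 windows were higher in epiRIL 92 and 55 in epiRIL 193, and with 0.3 it was 3 and 9, so the larger count changes with the limit. Windows lost in epiRIL 92 numbered 11 and 4 with coverage minimums of 5 and 20. With a Col-Wt limit of 0.1, epiRIL 92 had lost 25 and kept 193, and epiRIL 193 was partly methylated in 93 and had kept 191. With 0.3, epiRIL 92 was partly methylated in 88 and had kept 30, and epiRIL 193 had lost 53, held 21 in part and kept 50. The shares changed too: partly methylated windows made up 48.1% for epiRIL 92 with the limit of 0.1, where kept ones made up 46.0%, against 67.3 and 29.5% as reported and 71.0 and 24.2% with 0.3. With the mean of epiRILs 150 and 232 as reference, the position of epiHybrid 92 was 0.0845, in place of -0.0258. That of epiHybrid 193 was 0.420, in place of 0.340. EpiHybrid 92 was also above 0 with a coverage minimum of 5 (0.0304) and Col-Wt limits of 0.1 (0.0199) and 0.3 (0.0189). With the remaining alternatives its position was below 0, down to -0.105 with a minimum of 20 cytosines. By tract, epiRIL 92 ranged from 43.1 to 59.4% of the reference in tracts A, C, D and E over all alternatives, and epiRIL 193 from 1.43 to 8.24% in tracts A and E and from 91.9 to 109.5% in tracts C and D. The planned count of cytosine contexts per window was not run. Levels that pool contexts, 1 value per line and unknown depth limit every comparison.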

Other observations

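Among the 34 genes with at least 5 windows at 0.05 or more in Col-Wt, AT4G21520 (protein-coding, 12 windows) had the highest share in epiRIL 92. It read 0.176 in epiRIL 92 and 0.164 in epiRIL 232, against 0.102 in Col-Wt, 0.101 in epiRIL 193 and 0.126 in epiRIL 150. EpiHybrids 92 and 193 read 0.120 and 0.125 there. Weakly methylated windows were those of all intervals with a mean over the 9 lines under 0.02, with no minimum number of cytosines. In these 15675 windows Col-Wt read 0.00790, epiRIL 92 0.00503 and epiRIL 193 0.00538.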
